A study of Triticum aestivum with 8 samples.

Results

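In germinating wheat, 310 of the 43603 probes on the array read transcripts whose signal, relative to the rest of the array, was lower after 16 h of imbibition than in dry seed and lower again after 24 h. Relative to spiked-in control RNA, a scale that shifts a given step of every probe by the same amount, 41 of the 310 had a higher signal after 16 h than before imbibition. All were lower at 24 h than at 16 h on that scale, which the size of the fall required of members fixed in advance. They were chosen by their own values. A probe was a member if it was flagged well above background on both dry-seed and all 3 of the 16 h arrays, if its group mean was at least 2 log2 units (4-fold) lower at 16 h than in dry seed, and if it was at least 1.5 log2 units (2.83-fold) lower at 24 h than at 16 h. All values are log2 signals relative to the 75th percentile of the array, called scaled signal here, so they describe a transcript relative to the others on its array. In whole embryos, fewer cells of a type and less RNA per cell cannot be told apart. Because the rule used all 3 group means, the levels and steps of the members are descriptions. Calls from a fit over all probes are counted beside the share of all probes called, and nothing is read from them about the members.

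The samples were embryos of Triticum aestivum, hexaploid bread wheat, of the cultivar Norin61. Dry seed (0 h of imbibition, 2 arrays), 16 h imbibed seed (3 arrays) and 24 h imbibed seed (3 arrays) were compared. The grain had been surface-treated with hypochlorous acid and laid on wet cotton in darkness at 25 °C, and only grains with a radicle, the embryonic root, of at least 3 mm at 16 h or 7 mm at 24 h were kept. Each array carried 200 ng of total RNA from 1 pool of 7 embryos, labelled with the dye Cy3. The titles give these hours, whereas the description fields of the imbibed samples read 8 and 16 h. The 8 arrays lay on 2 slides, each holding all 3 groups: slide 1 held replicate 1 of each group together with 16 h replicate 2, and slide 2 held the rest. The array's sequence names were set against 155467 genes of the RefSeq annotation of Chinese Spring wheat, and 0 of them matched. The files pair the probes with no gene description, so members are given by probe and sequence name, without a function, and the embryo label could not be set against marker genes.

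A mature embryo dries down with a store of messenger RNA made during seed maturation. In cereals this store is known to include messages for late embryogenesis abundant proteins, small heat shock proteins, oil body proteins and antioxidant enzymes, which protect cells during drying. When the grain takes up water, many stored messages are degraded while transcription of genes for metabolism and growth resumes, and the radicle then emerges. Whether a given member belongs to any of these families is not known from the files.

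The members held a large part of the signal of the dry embryo and almost none of it later. Together they made up 16.4% and 15.8% of the summed signal of all wheat probes on the dry-seed arrays. At 16 h they made up 0.366%, 0.553% and 0.549%, and at 24 h 0.128%, 0.116% and 0.114%. The members are 0.711% of all probes. The shares of the 3 groups did not overlap, and 16 h replicate 1 was the lowest at 16 h. The rule chose probes by these falls, so nothing is read from the lack of overlap. Summed signal is a measure of brightness, which also depends on the probe, and not of mass.

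Before imbibition the 310 members had median scaled signals of 4.43 and 4.25. In the 16 h pools the medians were -1.83, -1.35 and -1.42, and in the 24 h pools -3.48, -3.61 and -3.64. Most of the way down had been covered by 16 h. The median first step, 16 h minus dry seed, was -6.06 (66.7-fold lower at 16 h), with quartiles of -7.31 and -3.90 and extremes of -9.16 and -2.0. The median second step, 24 h minus 16 h, was -1.87 (3.65-fold lower at 24 h), with quartiles of -2.23 and -1.64 and extremes of -5.38 and -1.5. Over all 30834 tested probes the medians of the same steps were -0.06 and -0.01. For each member, 28.0% to 85.8% of the log2 fall from dry seed to 24 h was present at 16 h, with a median of 74.2%.

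**Figure D1:**
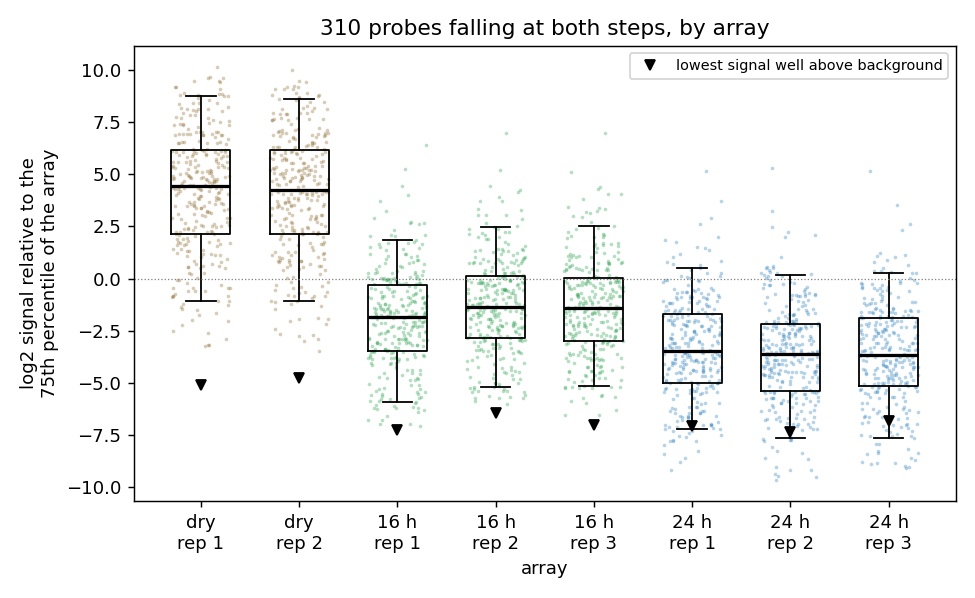
Scaled signal (log2, relative to the 75th percentile of the array) of the 310 members on each of the 8 arrays; points are probes, boxes span the quartiles with the median as a line, and whiskers reach the 5th and 95th percentiles. The medians of the groups' arrays lie at 4.43 and 4.25, then between -1.83 and -1.35, then between -3.64 and -3.48, and part of the 24 h points lie below the triangles, which mark the lowest signal well above background.

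Both steps varied widely in size. The first step was at least 4 log2 units in 231 members, at least 6 in 156 and at least 8 in 23, and under 3 in 48. The second step was at least 2 log2 units in 120 members and at least 3 in 10. It was larger than the first step in 11. Across the 310 members the steps correlated at r = -0.14, a description over probes that share the 16 h arrays and enter the steps with opposite signs. By the hours in the titles the intervals differ in length, 16 h and 8 h. Per hour so counted, the median change was -0.38 log2 units in the first interval and -0.23 in the second, and 85 members had the steeper slope in the second. By the hours in the description fields both intervals would be 8 h, and the 11 members with the larger second step would be the steeper ones.

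**Figure D2:**
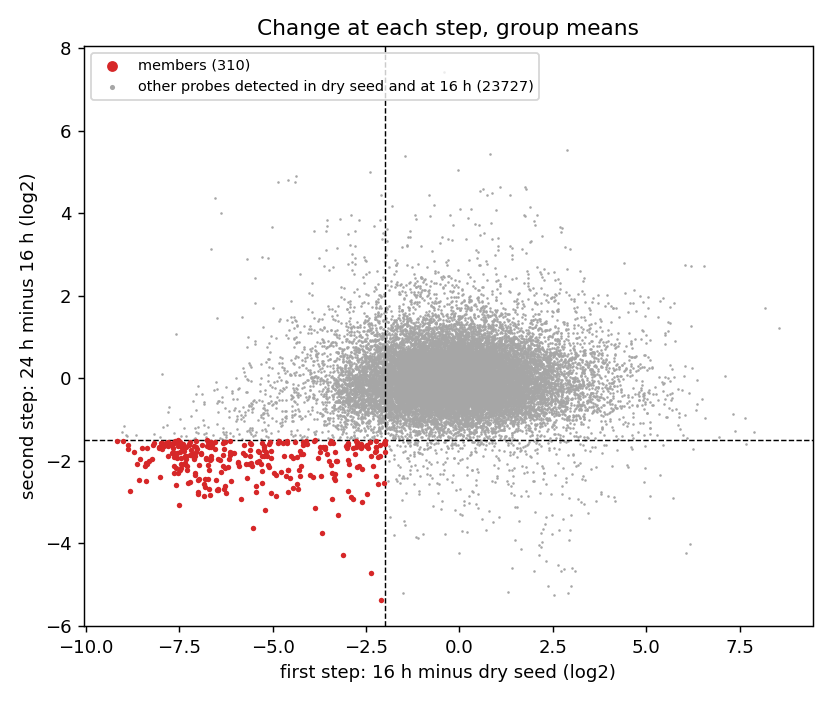
First step (16 h minus dry seed, log2) against second step (24 h minus 16 h, log2) for the 24037 probes well above background on all dry-seed and 16 h arrays. Members, in red, fill the corner beyond both dashed minimums, with first steps from -9.16 to -2.0 and second steps from -5.38 to -1.5, with quartiles of -2.23 and -1.64.

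The minimums cut through a continuous cloud of probes. Of the 24037 probes detected in dry seed and at 16 h, 2875 passed the first minimum and 691 the second, so members were 10.8% of the probes past the first minimum and 44.9% of those past the second. The members just inside the first minimum had first steps of -2.003, -2.004 and -2.007, and the probes just outside it had -1.997, -1.901 and -1.893. At the second minimum the values were -1.502, -1.503 and -1.505 inside and -1.499, -1.496 and -1.492 outside. Of the 2565 probes that fell as far to 16 h without passing the second minimum, called one-step fallers here, 240 had a second step of 1 to 1.5 log2 units.

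Arrays of successive groups rarely overlapped. Every 16 h array lay below both dry-seed arrays in 310 of 310 members, against 43.1% of all tested probes, and every 24 h array lay below every 16 h array in 295, against 31.5%. Every 24 h array lay below both dry-seed arrays in 310, against 42.5%. The rule used these contrasts, so nothing is read from the difference. In 13 of the 15 members with overlap between 24 h and 16 h, the overlap was with 16 h replicate 1 alone. In a limma fit over all 30834 tested probes, with a call at a Benjamini-Hochberg adjusted p below 0.05 and at least 2-fold, 310 members were called lower at 16 h than in dry seed, against 26.4% of tested probes. From 16 to 24 h 301 were called lower, against 6.77%, and from dry seed to 24 h 310, against 27.0%. The 9 members not called at the second step had SDs of 1.12 to 1.88 among the 24 h arrays. In 8 of these 9, 24 h replicate 1 was the highest and replicate 2 the lowest of the 24 h arrays.

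The largest falls to 24 h reached 3 orders of magnitude. Probe A_99_P388492 (sequence name TA107620_4565) had a scaled signal of 5.60 and 5.54 before imbibition, -3.50, -2.36 and -3.17 in the 16 h pools, and -5.06, -5.74 and -5.67 in the 24 h pools. It was 382-fold lower at 16 h than in dry seed and a further 5.58-fold lower at 24 h, the largest fall from dry seed among members well above background at 24 h (2130-fold). Relative to the spike-ins its change from dry seed to 24 h was smaller, at -7.57 log2 units. Probe A_99_P455482 (TA78756_4565) followed the same course, with 5.0 and 5.29 before imbibition, -3.79, -2.92 and -3.06 in the 16 h pools, and -5.31, -5.68 and -6.23 in the 24 h pools. At both probes the dry-seed arrays differed less than the 16 h arrays, of which replicate 1 was the lowest. Probe A_99_P308741 (TA84282_4565) stood at 3.03 and 3.04 in dry seed and at -6.21, -5.59 and -5.56 at 16 h. It was not well above background on any 24 h array, where its measured values were -7.98, -8.63 and -8.99. Only an approximate bound is given for its 24 h level, 1120-fold below dry seed and 2.47-fold below 16 h in scaled signal. For such a bound, each 24 h value under the dimmest detected signal of its array was set to that signal. Probes brighter than that signal can also lack the flag, so the bound is not strict. The next 9 members by size of fall, all well above background at 24 h, had log2 changes from dry seed to 24 h of -11.06 to -10.53.

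In scaled signal, a few members fell more after 16 h than before. Probe A_99_P064335 (AL818224) had 5.99 and 6.16 before imbibition, 2.90, 4.15 and 4.04 in the 16 h pools, and -1.84, 0.20 and -1.40 in the 24 h pools. It was 5.18-fold lower at 16 h than in dry seed, although its first step relative to the spike-ins was 0.51 log2 units upward. At 24 h it was 26.3-fold lower than at 16 h. This was the largest second step among members well above background on every 24 h array. Its SD was 0.12 before imbibition (n = 2), 0.69 after 16 h (n = 3) and 1.07 after 24 h (n = 3). Probe A_99_P258756 (TA69642_4565) had -0.90 and -1.09 before imbibition, -3.47, -2.74 and -3.06 in the 16 h pools, and -7.57, -9.16 and -8.68 in the 24 h pools. It was well above background on 0 of the 24 h arrays, so its second step is given as an approximate bound of 16.0-fold. Its first step was 4.27-fold downward, and 0.79 log2 units upward relative to the spike-ins. Probe A_99_P360531 (TA100177_4565), with 0.58 and 0.83 in dry seed and -3.20, -2.21 and -1.87 at 16 h, was well above background on 1 of the 24 h arrays. Its 24 h values of -7.02, -4.73 and -8.41 spread over more than its first step.

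The smallest first steps lay at the rule's minimum. Probe A_99_P413747 (TA61555_4565) had 8.82 and 8.78 before imbibition, 6.42, 7.00 and 6.97 in the 16 h pools, and 5.16, 5.30 and 5.15 in the 24 h pools. It was 4.01-fold lower at 16 h than in dry seed, although 0.88 log2 units higher relative to the spike-ins, and 3.03-fold lower at 24 h than at 16 h. At 24 h it was still far above the 75th percentile of the array. Probe A_99_P424887 (TC384665) took steps of nearly the same size, with -0.75 and -0.42 before imbibition, -2.91, -2.59 and -2.27 in the 16 h pools, and -4.35, -3.64 and -4.34 in the 24 h pools. At both probes the groups did not overlap, and the first step of A_99_P424887 was also 0.88 upward relative to the spike-ins.

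**Figure D3:**
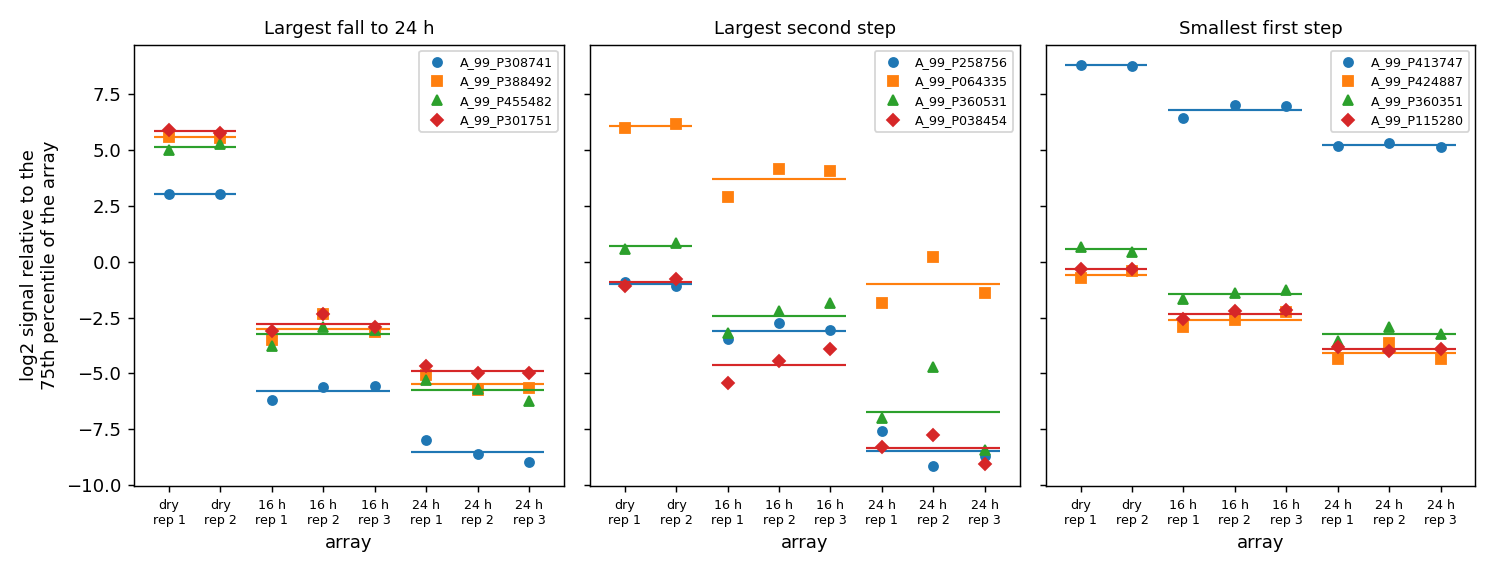
Scaled signal (log2) on each array for the 4 members with the largest fall to 24 h, the largest second step and the smallest first step; each point is 1 probe on 1 array, symbols mark the probe and horizontal lines are group means. Here 16 h replicate 1 is the lowest 16 h array for every probe drawn, and A_99_P064335 has means of 6.07, 3.70 and -1.02 in dry seed and after 16 and 24 h.

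Several members shared a sequence name. The 310 members carried 286 distinct sequence names, with 3 more members named only by their probe, and 17 names had 2 or more members, 38 members in all. Such probes may read the same transcript and are not independent. The 4 probes of CD907899 included the brightest member on the dry-seed arrays, A_99_P157032, with 10.16 and 9.98 before imbibition, 3.23, 3.70 and 3.81 in the 16 h pools, and 0.50, 1.05 and 1.07 in the 24 h pools. The first steps of the 4 probes were -6.49, -6.47, -6.26 and -6.29, and their second steps -2.71, -2.72, -2.78 and -2.70. Over the 17 names, the median range within a name was 0.11 log2 units for the first step and 0.08 for the second, while the scaled signal in dry seed differed by a median of 0.95. All these probes had passed both minimums, which limits how far their steps could differ. The widest first-step range was 1.24, for U80037, whose probes A_99_P163432 and A_99_P248551 had first steps of -8.72 and -7.48. The widest second-step range was 0.53, for AK333743.

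Other probes that carried a member's name, which the rule did not choose, mostly fell at the first step and less clearly at the second. Of the 286 names, 12 had 13 further probes, of which 11 were detected in dry seed and at 16 h. Of the 11, 10 passed the first minimum, against 12% of all 24037 detected probes. Lower at both steps were 10 of the 11, but at least 2-fold lower at both were only 4. The share of all detected probes lower at both steps is not given. Over the 11 the median first step was -5.17 and the median second step -0.91, against -0.2 and -0.07 over all detected probes. By construction none passed both minimums, so the 10 that passed the first had to have a second step smaller than the members' minimum. The closest was A_99_P289841, a probe of TA78755_4565, with steps of -4.15 and -1.41. At CJ648402, probe A_99_P113540 had steps of -5.99 and 0.01, and at TA69323_4565, probe A_99_P257676 had steps of -1.41 and -0.05.

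Members often had members with near numbers in their names. Of 170 members with a numbered TA name, 74 (43.5%) had another member within 10 numbers. Of 1144 one-step fallers with such a name, 56 (4.9%) had a member within 10 numbers. The 473 other detected probes within that distance of a member passed the first minimum in 11.8% of cases, against 9.9% of all 11526 detected non-members with such a name. At least 2-fold lower at 24 h than at 16 h were 53 of the 473 (11.2%), against 5.7% of those non-members. What closeness of these numbers means is not given in the files.

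Replicate 1 at 16 h stood apart in these probes. It was the lowest of the 16 h arrays in 271 members (87.4%), against 36.5% of all tested probes. Its scaled signal was below the mean of replicates 2 and 3 in 283 members, with a median difference of -0.63, and at least 2-fold below it in 48. Over all tested probes the same median was 0.02, and among one-step fallers it was -0.12. Among 451 probes that were higher at both steps by the mirrored minimums, replicate 1 was the highest of the 16 h arrays in 422 (93.6%), with a median difference of 1.15. Deviations within a group do not enter the rule, but groups of 3 arrays allow no test of them. Replicates 1 and 2 at 16 h were on the same slide, and replicate 2 was the lowest in 9 members. Without 16 h replicate 1 the rule found 352 probes, and the members' median steps were -5.88 and -2.07. The part of this array in the results was otherwise not tested.

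**Figure D4:**
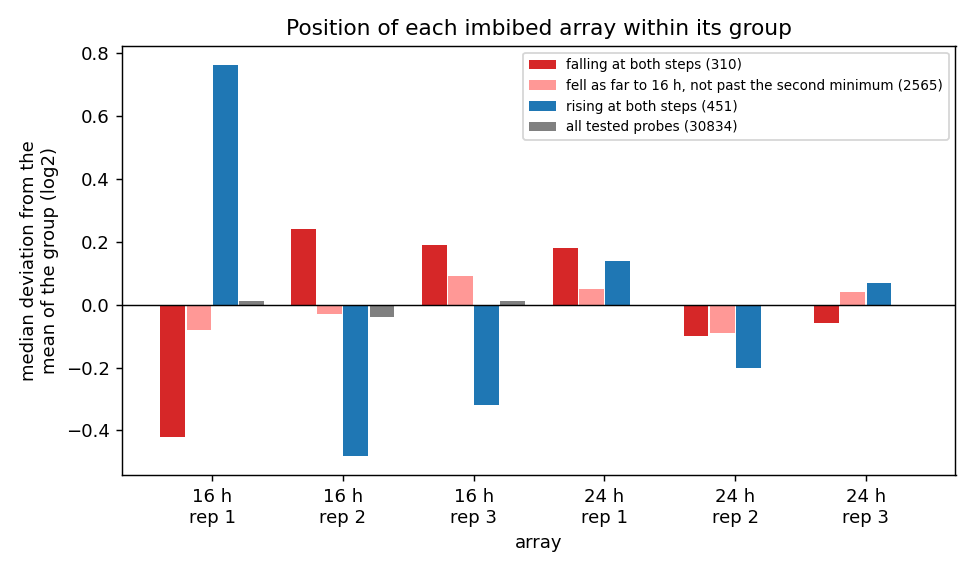
Median deviation of each imbibed array from the mean of its group (log2), for members, one-step fallers, probes rising at both steps and all tested probes. For 16 h replicate 1 the members lie at -0.42 and the risers at 0.76, while all tested probes lie at 0.01.

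At 24 h replicate 1 was the array closest to the 16 h level. It was the highest of the 24 h arrays in 170 members (54.8%), against 32.7% of all tested probes, and its median deviation from the group mean was 0.18. The first step was 76.0-fold, 59.9-fold and 58.0-fold at the median for 16 h replicates 1, 2 and 3, each against the dry-seed mean. The second step ranged from -1.39, for 24 h replicate 1 minus 16 h replicate 1, to -2.35, for 24 h replicate 2 minus 16 h replicate 2. All 9 pairings of a 24 h with a 16 h array had a median below -1, and over all tested probes the same 9 medians lay between -0.05 and 0.05. The rule required a fall between the means of these same arrays, so nothing is read from this contrast.

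The median SD among replicates was higher in the imbibed groups than in dry seed. At equal spread the median SD of 2 arrays is lower than that of 3, and the members were also dimmer after imbibition. The groups' SDs are therefore not directly comparable. The median SD of a member was 0.11 before imbibition (n = 2), 0.40 after 16 h (n = 3) and 0.32 after 24 h (n = 3), against 0.12, 0.19 and 0.15 over all tested probes. Among one-step fallers the medians were 0.10, 0.22 and 0.19. Choosing by differences of means can favour probes with wide spread, so these spreads are given with no test. At 24 h the SD was at least 1 in 25 members, and in 19 of them replicate 1 was the highest and replicate 2 the lowest array. Of the 25, 16 were well above background on every 24 h array. The probes of TA61351_4565 were of this kind, A_99_P540297 having 9.62 and 9.44 before imbibition, 1.47, 2.53 and 2.37 in the 16 h pools, and 1.76, -0.42 and 0.25 in the 24 h pools. Its 24 h replicate 1 lay above its 16 h replicate 1, as in 14 members in all.

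The rule was also applied to each slide alone. Applied to slide 1 alone, the rule chose 226 probes. On slide 2, 183 of these (81.0%) met the rule again, against 1.73% of the probes detected there. All 226 were lower at 24 h than at 16 h on slide 2, and 223 (98.7%) were at least 2-fold lower, against 10.3% of the probes detected there. Their medians on slide 2 were -5.47 for the first step and -2.23 for the second, against -0.24 and -0.10 over the detected probes. Applied to slide 2 alone, the rule chose 431 probes, of which 384 were detected in dry seed and at 16 h on slide 1. Of the 431, 183 (42.5%) met the rule on slide 1, against 0.908% of the probes detected there. On slide 1, 314 of the 431 (72.9%) were at least 2-fold lower at 24 h than at 16 h, against 7.29% of the probes detected there. Their median second step was -1.44, against -0.05. The 431 include probes not detected on slide 1, so the shares compared have unlike bases. Slide 1 carried 16 h replicate 1 and 24 h replicate 1, which differ least of the 9 pairings. A slide gives 1 or 2 arrays per group, so these are counts with no test. The rule was set with earlier results of these data known, so neither slide stands apart from the choice. Nothing is read from these shares.

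A minority of members ended near the dimmest detected signals. At 24 h 268 members were well above background on all 3 arrays, 9 on 2, 18 on 1 and 15 on none. On the 24 h arrays the dimmest detected signals were 10.1, 10.5 and 14.2 in linear units. In the same units, before scaling, the members' median signal was 5210 before imbibition, 491 after 16 h and 143 after 24 h. At 24 h 48 members lay less than 1 log2 unit above the mean scaled level of the dimmest detected signals or below it. For the 15 members well above background on none, the approximate bound on the second step was 1.72-fold to 16.0-fold, and it reached the minimum of 2.83-fold in 8 of them. Against dry seed their bounds were 32.3-fold to 1120-fold.

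Relative to RNA spiked into the samples, fewer members fell as far. Control probes on the array read synthetic RNA added to the samples, and wheat signal as a whole was higher against them after imbibition, so that over all tested probes the median first step was 2.82 and the median second step 0.60 on that scale. The median first step of the members was -3.18 and their median second step -1.26. At 16 h 269 members were lower than in dry seed and 41 were higher, with first steps from -6.28 to 0.88. All 310 were lower at 24 h than at 16 h on this scale, by 0.89 log2 units or more, and 249 were at least 2-fold lower. Both minimums were met by 59 members. Their median steps relative to the 75th percentile were -6.70 and -2.47, against -5.40 and -1.76 for the other 251, a difference that a cut at shifted minimums brings about. In limma on this scale 233 members were called lower at 16 h, against 2.75% of tested probes, and 247 from 16 to 24 h, against 2.35%. From dry seed to 24 h 281 were called lower, against 2.50%. The members were chosen on these same contrasts, so these counts too are descriptions. At the second step A_99_P413747 changed by -0.99 on the spike-in scale. A_99_P388492 was lower on both scales, with steps of -5.70 and -1.87 against the spike-ins.

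**Figure D5:**
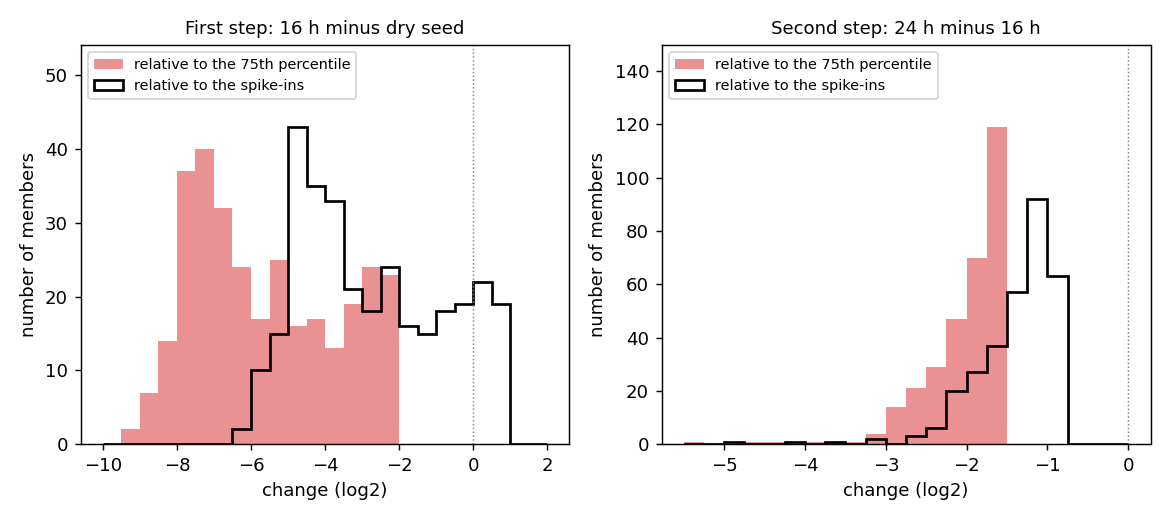
Number of members by size of the first step (left) and of the second step (right), in log2 units, relative to the 75th percentile of the array (red) and to the spike-ins (black outline). The first-step medians are -6.06 (75th percentile) and -3.18 (spike-ins, 41 members above 0), and the second-step medians are -1.87 and -1.26.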

How the data were processed

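Single-channel (Cy3) arrays of 8 RNA pools were grouped by sample title. Per the file headers, the scans were read by Agilent Feature Extraction 10.7.3.1, and the deposited intensity values used here are its processed signals, corrected for background within each array and linear. The deposited log2 table was used as an alternative. Its columns matched the log2 processed signal, scaled to the 75th percentile and centred on each probe's median, with column medians of 0.47 and 0.50 before imbibition, -0.05, 0.00 and -0.04 for the 16 h pools and -0.07, 0.00 and -0.06 for the 24 h pools, so scale, centring and direction are known. Its columns of 24 h replicates 2 and 3 each fitted the other's scanner file; both are of 1 group.

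Here log2 signals were scaled to the 75th percentile over 43803 non-control spots, and spots of a probe were averaged. No spot of a member's probe was duplicated and no non-control spot was saturated. A probe was well above background when 50% or more of its spots had the flag. Probes detected on every array of at least 1 group (30834) were fitted with limma 3.58.1 in R 4.3.3, with a mean per group and 1 shared spread. The fit was tested on simulated data with independent noise and falls at probes picked at random. Members were chosen by their own values, so that test says nothing about them. The labels do not say that pools were grown apart, so calls reflect the spread between pools only, and the number of arrays limits the precision. Spike-in scaling used 8 control probes, and normexp an offset of 50 on median intensities. Of 25322 to 32007 probes above background per array, the fewest were in dry seed, with an unscaled 75th percentile of 246.0 and 262.3, against 1171 to 1722 on imbibed arrays.

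The members and lists were chosen with earlier results of these data known. Members were named by rank: the largest falls to 24 h, the brightest in dry seed, the largest second and smallest first steps, those next to each minimum, and names with several probes; from each set the first few are printed. Lists of genes by function and of embryo, endosperm, aleurone and leaf markers were planned, but 0 sequence names matched a gene, so no list was counted.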

Additional observations from a re-analysis of the deposited data

How the results depend on the processing

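The number of probes meeting the rule was 310. It was 59 with spike-in scaling, 131 with normexp background correction, 649 with both minimums lowered by 0.5 log2 units and 113 with both raised by 0.5. Without single arrays it was 264 to 352, fewest without 16 h replicate 2 and most without 16 h replicate 1. It was 226 on slide 1 and 431 on slide 2. With the percentile taken over probes after averaging, chosen after seeing the data, it was 311. The median first step of the members was -6.06, and -5.59 with quantile scaling, -3.18 with spike-in scaling, -5.41 with normexp and -5.80 on slide 2; without single arrays it was -6.07 to -5.88. The median second step was -1.87, and -1.26 with spike-in scaling, -1.44 with normexp, -1.63 on slide 1 and -2.20 on slide 2; without single arrays it was -2.07 to -1.78, the largest fall without 16 h replicate 1. Of members, 129 met the rule with normexp, and the other 181 were dimmer at 24 h (median linear signal 67.4, against 324). Members called lower numbered 307 to 310 at the first step, 287 to 306 at the second and 310 from dry seed to 24 h without single arrays; the lone dry-seed array is then assumed to vary like the other groups. Over all tested probes, 8150 were called lower and 7920 higher at the first step, 2086 and 3593 at the second, and 8310 and 9037 from dry seed to 24 h. With spike-in scaling these were 847 and 26762, 726 and 8992, and 772 and 27993, and with normexp 12608 and 4021, 1344 and 2167, and 12591 and 4749. With the replicate number as a block, calls were 310, 294 and 310. Same-numbered 16 and 24 h arrays had deviations correlated at 0.12, 0.09 and -0.04, and replicate 3 at 16 h correlated best with replicate 2 at 24 h (0.13). The numbers were not taken as pairs. Those of 24 h replicates 2 and 3 are themselves uncertain, because their columns in the deposited log2 table each fitted the other's scanned values. These correlations and the block calls hold for the numbers as given. Of 54 steps of named members, 7 reversed, all first steps under spike-in scaling, at 0.51 for A_99_P064335, 0.87 for A_99_P115280 and A_99_P257666, 0.79 for A_99_P258756, and 0.88 for A_99_P360351, A_99_P413747 and A_99_P424887. Low signal also limits the second step: 42 members were not well above background on at least 1 of the 24 h arrays.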
